A study of Mus musculus with 8 samples.

Results

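Transcripts of complex III, cytochrome c, complex IV and ATP synthase were measured in brown adipose tissue of Prdm16 KO and WT mice. The list holds 38 genes of nuclear DNA, of which 37 could be read on the array among 21742 genes tested. A gene counted as a member if a probe carried its symbol, including the older Atp5 names. By this rule 35 genes were found, and Uqcr10 and Uqcr11 were added through the RefSeq accession of their probes. Atp5g1 had no probe under its own symbol. The measured members were 9 genes of complex III, Cycs, 13 genes of complex IV and 14 genes of ATP synthase. All 37 probes were well above background in all 16 channel measurements, and no spot on any array was saturated.

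The groups were Prdm16 KO mice 11 months of age, WT mice 11 months of age, Prdm16 KO mice 6 weeks of age and WT mice 6 weeks of age, with 4 biological replicates each per the labels. Prdm16 encodes a zinc-finger transcriptional regulator of brown fat identity, and the labels give neither the promoter nor the cell type in which it was deleted. Each of 8 two-colour arrays set 1 KO sample against 1 WT sample of the same age, with KO tissue in Cy5 on 2 arrays and in Cy3 on 2 arrays of each age. Each age lay on its own slide, read at its own scan time with its own version of the scanner software, so age and slide cannot be told apart. Fold changes are log2 ratios of KO over WT, so a value of -1 is a level in KO tissue at 1 part in 2 of WT. Errors of fitted values are standard errors of 1 limma model of all 8 arrays (n = 4 per age) with a dye coefficient. Calls were made below an adjusted p of 0.05 (Benjamini-Hochberg over all genes tested).

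Complex III takes electrons from ubiquinol and hands them to cytochrome c, and complex IV passes them on to oxygen. Both pump protons across the inner mitochondrial membrane, and ATP synthase makes ATP as the protons flow back. In brown fat the uncoupling protein UCP1 offers the protons another way back and turns the gradient into heat. Brown fat mitochondria are known for much respiratory chain and little ATP synthase, a ratio that has been tied to the amount of the enzyme's c subunit, and in mouse to the c subunit gene Atp5g1. Complex IV also has subunits with a ubiquitous and a heart and skeletal muscle isoform. Cox7a1 and Cox8b, of the muscle kind, are common brown fat markers.

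Prdm16 mRNA stood at -0.50 ± 0.15 at 11 months (adjusted p = 0.0372) and -0.58 ± 0.15 at 6 weeks (adjusted p = 0.042). The sources used here do not say whether its probe lies within the deleted sequence. The brown fat gene Ucp1 and the adipocyte genes Adipoq and Plin1 were well above background in all 16 channel measurements. Ucp1 fell by 4.05 at 11 months (adjusted p = 0.000419) and stood at 0.13 at 6 weeks (adjusted p = 0.864). Of 9 brown fat and adipocyte markers 5 were lower at 11 months (Ucp1, Cidea, Dio2, Elovl3 and Ppargc1a), and the general adipocyte genes Adipoq, Plin1 and Fabp4 were higher, at 1.49, 0.68 and 0.50 (adjusted p = 2.28e-05, 0.000118 and 0.00298). These 3 were also higher at 6 weeks, at 0.40, 0.46 and 0.85 (adjusted p = 0.0147, 0.00312 and 0.00168). The other general adipocyte gene of the list, Pparg, was called at neither age. It stood at -0.31 at 11 months (adjusted p = 0.171) and -0.25 at 6 weeks (adjusted p = 0.326). Fabp4 was split by dye at 11 months, at 1.24 and 1.07 with KO tissue in Cy5 and at -0.25 and -0.066 in Cy3. Markers of skeletal muscle varied between arrays at both ages, and of 35 measured none was called at either age. Their median log2 ratios were -0.54, -1.15, -0.26 and 1.97 on the 11-month-old arrays 1 to 4 and 0.031, -2.71, 1.66 and -2.82 on the 6-week-old arrays 1 to 4. Their mean log2 intensity ranged from 10.5 to 14.2 in KO channels and from 10.7 to 13 in WT channels at 11 months, and from 8.04 to 9.58 in KO channels and from 7.89 to 11.6 in WT channels at 6 weeks. The 3 arrays with the largest of these medians in size were 11-month-old array 4 and 6-week-old arrays 2 and 4.

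At 11 months the 3 complexes fell together in KO tissue. Of the 37 members 33 were lower, 1 was higher and 3 were not called, against 16.8% of all genes tested called lower and 17.9% called higher. The median of the members was -1.33, beside 0.0082 over all genes. On each of the 4 arrays 34 of 37 members lay below 0, and 33 members were below 0 on 4 of 4 arrays, against 25.3% of all genes. The count of lower members ranged from 30 to 33 over the alternative settings, and it stayed at 33 without the 3 arrays with the largest muscle medians. In bulk tissue, fewer brown adipocytes and less RNA per cell cannot be told apart. Markers of other cells also moved at 11 months, with 5 of 12 higher and none lower, among them the fibroblast collagen genes Col3a1 at 1.90 ± 0.35 and Col1a1 at 1.72 ± 0.37 (adjusted p = 0.00451 and 0.00908). Their part in the members' fall was not tested.

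**Figure D1:**
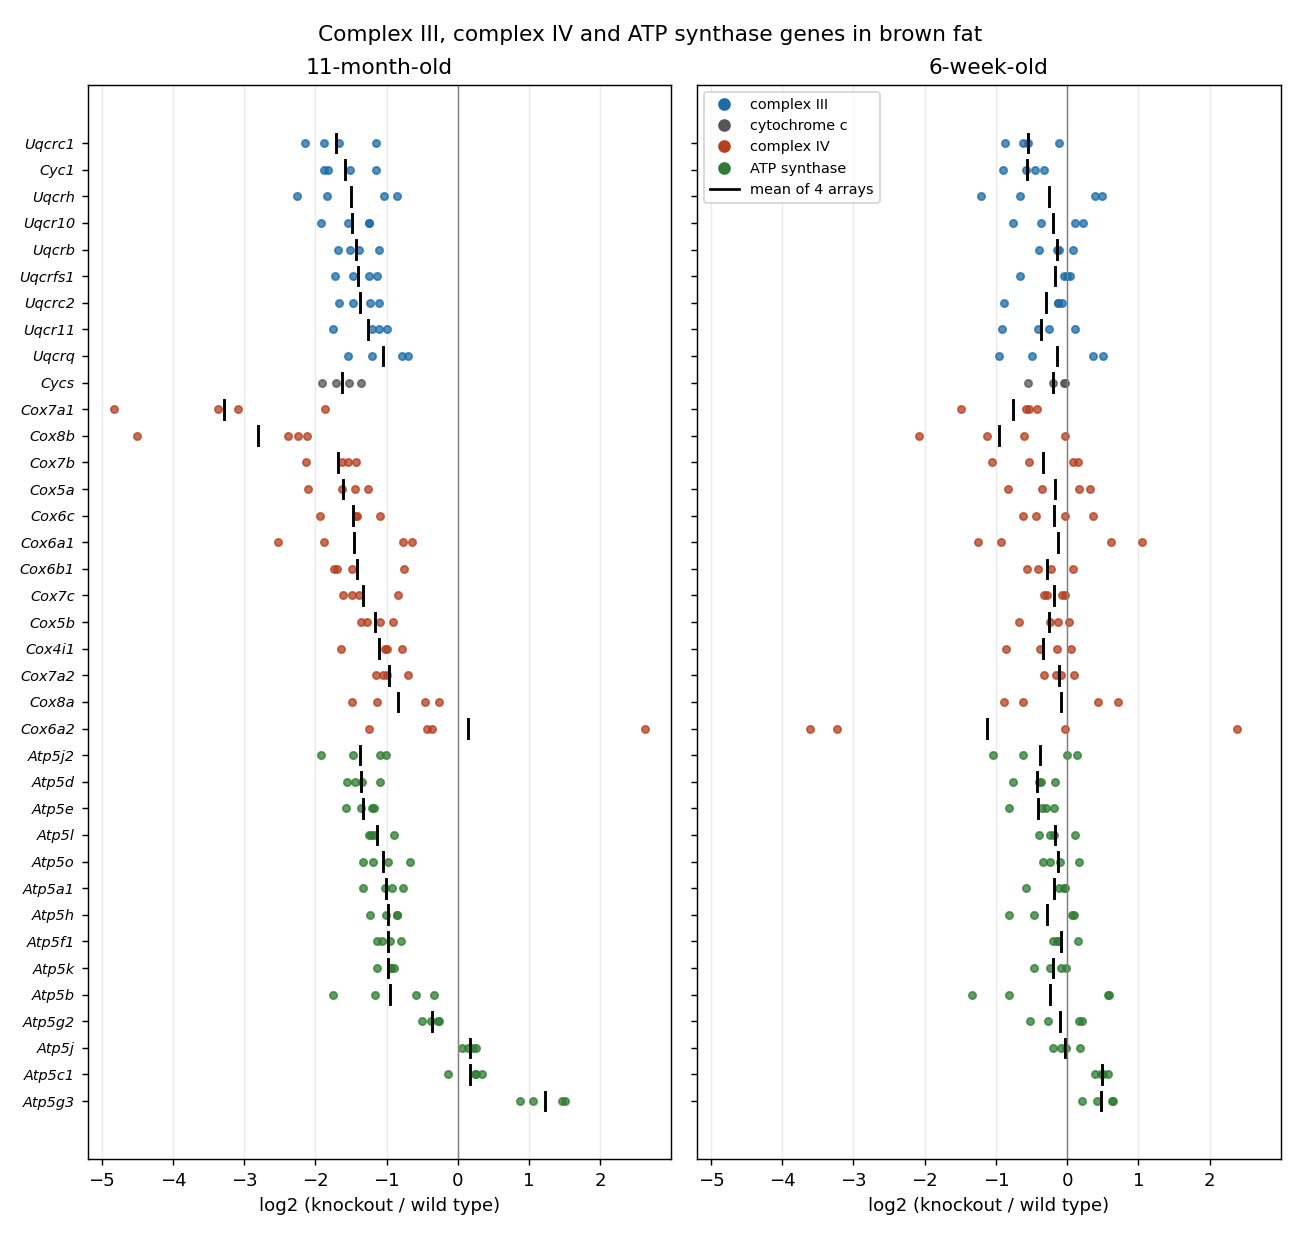
Log2 ratio of KO over WT for each of the 37 members, on the 11-month-old arrays (left) and the 6-week-old arrays (right). Each point is 1 array and the black bar is the mean of 4 arrays, with genes sorted within each complex by their change at 11 months. At 11 months all bars except those of Cox6a2, Atp5j, Atp5c1 and Atp5g3 lie left of 0, and Cox7a1 and Cox8b lie farthest to the left.

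In complex III all 9 members fell at 11 months, within a narrow range of -1.71 to -1.06 and with a median of -1.43. Uqcrc1, which encodes a core protein of the complex, had log2 ratios of -1.67, -1.88, -2.14 and -1.15 on the 11-month-old arrays and -0.88, -0.12, -0.55 and -0.63 on the 6-week-old arrays. The 2 sets of arrays did not overlap, and 11-month-old array 4 was the nearest to the younger age. The fitted change was -1.71 ± 0.17 at 11 months (adjusted p = 0.000257) and -0.54 ± 0.17 at 6 weeks (adjusted p = 0.0647). Cyc1 encodes cytochrome c1, the haem protein that reduces cytochrome c. It had -1.51, -1.88, -1.82 and -1.15 on the 11-month-old arrays and -0.90, -0.32, -0.58 and -0.45 on the 6-week-old arrays, below 0 on all 8. Cyc1 fell at both ages, by 3.01-fold at 11 months (-1.59 ± 0.14, adjusted p = 0.000147) and by 1.48-fold at 6 weeks (-0.56 ± 0.14, adjusted p = 0.0314).

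The smallest changes of complex III at 11 months were in 2 small subunit genes. Uqcrq had -0.70, -0.78, -1.55 and -1.20 on the 11-month-old arrays and a fitted change of -1.06 ± 0.11 (adjusted p = 0.000344). Uqcr11 had -0.99, -1.11, -1.75 and -1.20 and a fitted change of -1.26 ± 0.12 (adjusted p = 0.000204). At 6 weeks Uqcrq lay at -0.95, -0.50, 0.36 and 0.51, below 0 on the 2 arrays with KO tissue in Cy3 and above 0 on the 2 with KO tissue in Cy5. Its dye coefficient was 0.45, which the model took out. Uqcr11 lay at -0.92, -0.41, -0.25 and 0.10 at 6 weeks. The Rieske iron-sulfur protein gene Uqcrfs1, the core gene Uqcrc2, the hinge gene Uqcrh, and Uqcrb and Uqcr10 lay between these pairs, from -1.5 to -1.37 at 11 months.

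Cycs encodes cytochrome c itself, the carrier between the complexes. It had -1.53, -1.71, -1.90 and -1.36 on the 11-month-old arrays and -0.55, -0.042, -0.19 and -0.024 on the 6-week-old arrays, with no overlap between the ages. The fitted values were -1.63 ± 0.11 (adjusted p = 6.44e-05) and -0.20 ± 0.11 (adjusted p = 0.251). Of its 3 kept probes the brightest stands for the gene. The other bright probe gave a mean of -1.06 and a dim one -0.27 at 11 months.

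In complex IV 12 of 13 members fell at 11 months, with a median of -1.42. The 2 largest changes of all members were in the tissue-restricted isoform genes Cox7a1 and Cox8b. Cox7a1 had log2 ratios of -3.09, -3.37, -4.83 and -1.87 on the 11-month-old arrays and -1.49, -0.54, -0.58 and -0.42 on the 6-week-old arrays. Array 3 was the lowest of the older age and array 1 of the younger, and every 11-month-old value lay below every 6-week-old one. At 11 months Cox7a1 was 9.76-fold lower (-3.29 ± 0.40, adjusted p = 0.000708), with mean normalised log2 intensities of 14.9 in KO and 18.1 in WT channels. The Cox7a1 probe spans chromosome 7, 30970337 to 30970948 (mm9). Cox8b had -2.24, -2.38, -4.50 and -2.12 on the 11-month-old arrays and -2.08, -1.13, -0.61 and -0.033 on the 6-week-old arrays. The highest older value lay just below the lowest younger one. Its probe lies on chromosome 7, 148084852 to 148084911 (mm9). Cox8b was 7.02-fold lower at 11 months (-2.81 ± 0.34, adjusted p = 0.000664). On the same 11-month-old array 3, Ucp1 stood at -6.21 and Col3a1 at 3.55, each the most extreme of its age.

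At 6 weeks neither isoform gene was called, at -0.76 ± 0.40 for Cox7a1 (adjusted p = 0.238) and -0.96 ± 0.34 for Cox8b (adjusted p = 0.0933), although both lay below 0 on 4 of 4 arrays. These p-values depended on single arrays. Without 11-month-old array 4 they were 0.0391 for Cox7a1 and 0.0193 for Cox8b, and without 11-month-old array 3 Cox8b had 0.0424. With each age modelled alone they were 0.0423 and 0.0333, and without the 3 arrays with the largest muscle medians they were 0.0463 (-1.03) and 0.0319 (-1.34).

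The ubiquitous partners changed less. Cox7a2 had -1.06, -0.99, -1.15 and -0.69 at 11 months and -0.33, -0.16, -0.085 and 0.10 at 6 weeks, and Cox8a had -0.27, -0.46, -1.48 and -1.14 at 11 months and -0.89, -0.62, 0.44 and 0.71 at 6 weeks. Both were called at 11 months, Cox7a2 at -0.97 ± 0.092 (adjusted p = 0.000215) and Cox8a at -0.84 ± 0.096 (adjusted p = 0.000526). The call of Cox8a ended with no dye coefficient (adjusted p = 0.0621), and its dye coefficient was 0.57. Neither was called at 6 weeks (adjusted p = 0.42 and 0.556).

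The difference between partners was taken within each array, where both log ratios come from the same pair of samples. Cox7a1 minus Cox7a2 was -2.03, -2.38, -3.68 and -1.18 on the 11-month-old arrays, with a mean of -2.32 ± 1.04 (SD, n = 4), or 4.98-fold. On the 6-week-old arrays it was -1.17, -0.38, -0.49 and -0.52, with a mean of -0.64 ± 0.36. Cox7a1 was thus lower than its partner relative to WT on 8 of 8 arrays. Cox8b minus Cox8a was -1.98, -1.92, -3.02 and -0.98 on the 11-month-old arrays, with a mean of -1.98 ± 0.83 (3.93-fold). On the 6-week-old arrays it was -1.19, -0.51, -1.04 and -0.74, with a mean of -0.87 ± 0.31. This pair also had 1 sign on 8 of 8 arrays.

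An exact sign-flip test over the 8 arrays gave p = 0.00781 for each of these 2 pairs (two-sided, adjusted p = 0.0117 over the 3 pairs), the smallest p that 8 arrays allow. Without the 3 arrays with the largest muscle medians the means were -1.95 and -1.83, with 1 sign on 5 of 5 arrays, where an exact test cannot pass (adjusted p = 0.0938 each). Within 1 age the 4 arrays cannot give an exact p under 0.125, and both pairs had that value at both ages. Between the ages, the 11-month-old minus 6-week-old difference was -1.68 for Cox7a1 against Cox7a2 (exact permutation p = 0.0286, adjusted p = 0.0857) and -1.10 for Cox8b against Cox8a (exact permutation p = 0.0857, adjusted p = 0.129), so neither passed. Without 11-month-old array 4, the array with the largest muscle median at that age, they were -2.06 and -1.44 (exact permutation, adjusted p = 0.0429 each). Over all arrays left out singly, the adjusted p of the same test ran from 0.0429 to 0.171 for each pair. The number of arrays limits all of these tests, and they leave the ages confounded with the slides.

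**Figure D2:**
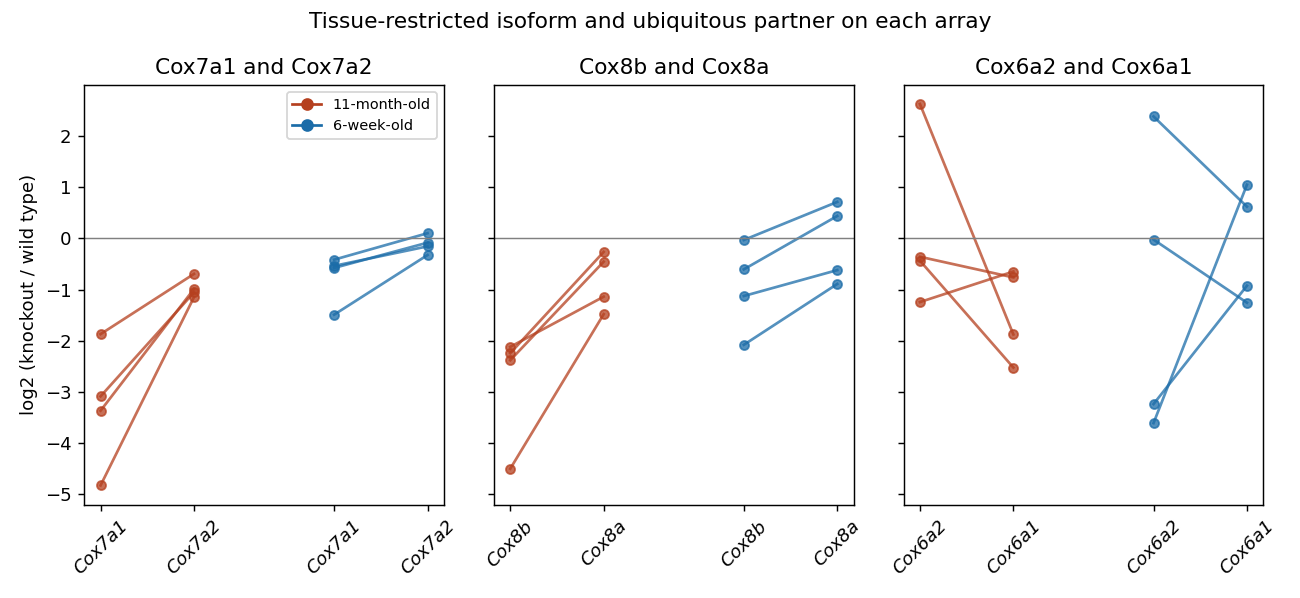
Log2 ratio of KO over WT of each tissue-restricted isoform and its ubiquitous partner, joined by a line for each array, with the 11-month-old arrays left and the 6-week-old arrays right in each panel. For Cox7a1 with Cox7a2 and for Cox8b with Cox8a all 8 lines rise toward the ubiquitous partner. For Cox6a2 with Cox6a1 the lines cross.

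Cox6a2, the other muscle-type isoform gene, showed no single direction. It had log2 ratios of -0.36, -1.24, -0.44 and 2.62 on the 11-month-old arrays and -0.024, -3.24, 2.38 and -3.61 on the 6-week-old arrays, a spread of several log2 units within each age. It was not called at either age (0.15 ± 1.03, adjusted p = 0.931 at 11 months, and -1.12 ± 1.03, adjusted p = 0.491 at 6 weeks). Its values took the same order as the muscle marker medians on the highest and lowest arrays of each age. Where the muscle median was 1.97 (11-month-old array 4) Cox6a2 was at 2.62, and where it was -2.82 (6-week-old array 4) Cox6a2 was at -3.61. Without the 3 arrays with the largest muscle medians Cox6a2 stood at -0.82 at 11 months (adjusted p = 0.265) and 1.18 at 6 weeks (adjusted p = 0.239), with both signs turned. The part of muscle tissue in the samples in this was not tested.

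Cox6a1, the ubiquitous partner, fell at 11 months (-1.45 ± 0.13, adjusted p = 0.000169) and stood at -0.13 ± 0.13 at 6 weeks (adjusted p = 0.533). Its arrays were -0.76, -0.65, -2.52 and -1.88 at 11 months and -1.26, -0.93, 0.62 and 1.05 at 6 weeks, split by dye at both ages. At 0.85 it had the largest dye coefficient of the 8 members with a called one. Cox6a2 minus Cox6a1 averaged 1.6 ± 2.23 at 11 months and -0.99 ± 3.04 at 6 weeks (SD, n = 4 each), and 0.30 over the 8 arrays (exact sign-flip p = 0.766). The SD exceeded the mean at both ages.

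**Figure D3:**
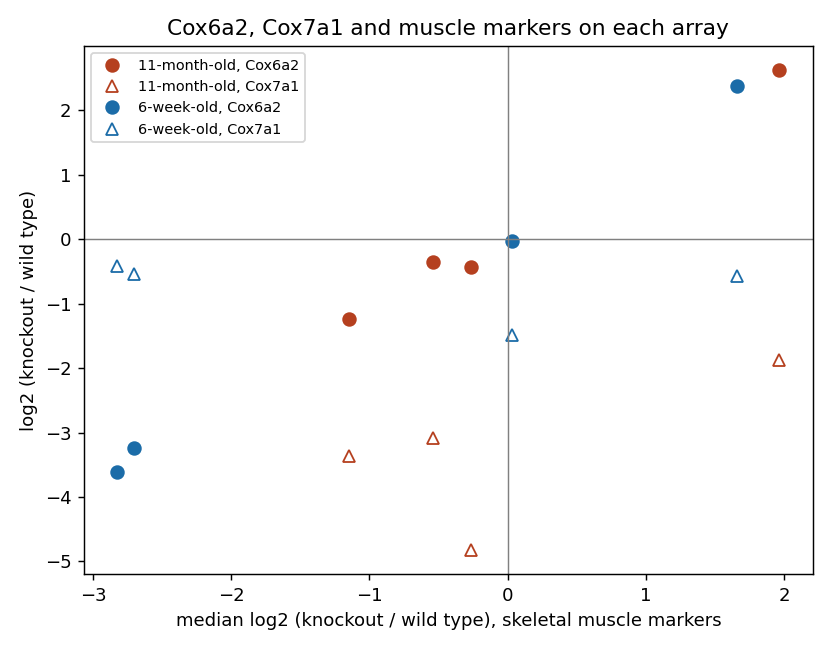
Log2 ratio of KO over WT of Cox6a2 (filled circles) and Cox7a1 (open triangles) on each array against the median log2 ratio of 35 skeletal muscle markers on the same array, 11-month-old arrays in red and 6-week-old arrays in blue. Cox6a2 runs from -3.61 to 2.62 along the muscle medians, and Cox7a1 stays below 0 on all 8 arrays.

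The other members of complex IV fell within -1.68 and -1.11 at 11 months. They were Cox7b, Cox5a (a nuclear subunit on the matrix side), Cox6c, Cox6b1 (on the intermembrane side), Cox7c, Cox5b (the zinc-binding subunit) and Cox4i1 (the ubiquitous form of subunit 4). Cox5a had the lowest adjusted p of these, 6.37e-05, with arrays at -1.26, -1.44, -2.10 and -1.63. At 6 weeks none of the 13 members of complex IV was called.

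The start regions of both pairs are shown because the partners of each pair differed on all 8 arrays. They are RefSeq promoters of build GRCm38.p6, from 250 bases before to 50 bases after the annotated start, with capitals for any match to 4 motifs on either strand. The motifs were GCGCATGC of NRF1, CCGGAAGT of GABPA and other ETS factors, AAGGTCA of the oestrogen-related receptors and AAGATGGC of YY1.
Cox7a1 (chr7:30183921-30184220, plus strand): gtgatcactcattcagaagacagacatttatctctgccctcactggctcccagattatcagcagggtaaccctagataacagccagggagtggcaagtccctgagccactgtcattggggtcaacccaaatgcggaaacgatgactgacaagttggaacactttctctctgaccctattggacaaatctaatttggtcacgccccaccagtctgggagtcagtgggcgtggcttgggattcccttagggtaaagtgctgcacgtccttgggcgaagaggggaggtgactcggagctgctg
Cox7a2 (chr9:79759804-79760103, minus strand): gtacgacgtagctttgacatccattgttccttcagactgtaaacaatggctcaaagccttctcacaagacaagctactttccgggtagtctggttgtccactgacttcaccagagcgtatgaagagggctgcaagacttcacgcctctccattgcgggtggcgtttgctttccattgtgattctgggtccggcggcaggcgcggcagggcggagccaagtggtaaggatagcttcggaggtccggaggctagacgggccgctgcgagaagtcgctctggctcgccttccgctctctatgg
Cox8b (chr7:140900397-140900696, minus strand): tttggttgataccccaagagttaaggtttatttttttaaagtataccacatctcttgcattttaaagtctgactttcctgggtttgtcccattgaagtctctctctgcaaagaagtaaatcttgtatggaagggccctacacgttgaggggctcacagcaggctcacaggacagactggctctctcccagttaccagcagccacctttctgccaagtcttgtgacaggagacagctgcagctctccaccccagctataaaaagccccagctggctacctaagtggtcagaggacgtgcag
Cox8a (chr19:7217567-7217866, minus strand): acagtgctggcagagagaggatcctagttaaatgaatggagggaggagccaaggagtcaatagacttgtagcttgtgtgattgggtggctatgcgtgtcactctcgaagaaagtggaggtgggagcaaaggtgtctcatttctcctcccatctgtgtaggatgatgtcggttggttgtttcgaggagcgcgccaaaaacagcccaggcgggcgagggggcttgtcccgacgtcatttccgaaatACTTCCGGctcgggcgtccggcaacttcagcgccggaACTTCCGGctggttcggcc
The Cox8a region held the ETS letters at 2 places, and the other 3 regions held none of the 4 motifs. Cox7a1 and Cox8b had 7 and 2 CG dinucleotides in 300 bases, against 20 in Cox7a2 and 19 in Cox8a, where the median of 21263 promoters of protein-coding genes was 13.

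Promoters were found for 30 of the 38 members, counting Atp5f1 under its RefSeq symbol Atp5pb, and 15 of the 30 held at least 1 of the motifs. None was matched for Uqcrb, Uqcrc2, Uqcrq, Cyc1, Cox4i1, Cox6a2, Cox6c and Atp5a1. The NRF1 letters stood in 7 of 30 members (23.3%), namely Uqcrc1, Uqcr11, Cycs, Cox6a1, Atp5g2, Atp5k and Atp5l, against 3.52% of 21263 protein-coding promoters. In 4 of the 7 the letters of the 2 strands overlapped in 1 longer palindrome. The ETS letters stood in 13.3% of members against 5.15%, the oestrogen-related receptor letters in 13.3% against 4.08%, and the YY1 letters in 10% against 3.05%. No motif overlapped another in a member. Member shares count a gene once over all its promoters (33 promoters for 30 genes), and the shares beside them count single promoters. Neither is matched for CG dinucleotides. These shares describe letters in a fixed window and say nothing of binding.

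In ATP synthase 11 of 14 measured members fell at 11 months, 1 rose and 2 were not called. The median was -0.99, nearer to 0 than those of complexes III and IV. On each array the ATP synthase median lay above the complex IV median. The gap was 0.39, 0.45, 0.45 and 0.22 on the 11-month-old arrays and 0.34, 0.30, 0.057 and 0.052 on the 6-week-old arrays. At 6 weeks the 2 larger gaps were on the arrays with KO tissue in Cy3 and the 2 smaller on those in Cy5. These array medians are not corrected for dye. The median of complex IV averaged -1.35 ± 0.23, that of complex III -1.40 ± 0.27 and that of ATP synthase -0.98 ± 0.15 over the 4 arrays at 11 months (SD). The complex III and complex IV medians differed by 0.12 or less on each of the 4 arrays at 11 months, with complex IV the higher on 3 of them.

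**Figure D4:**
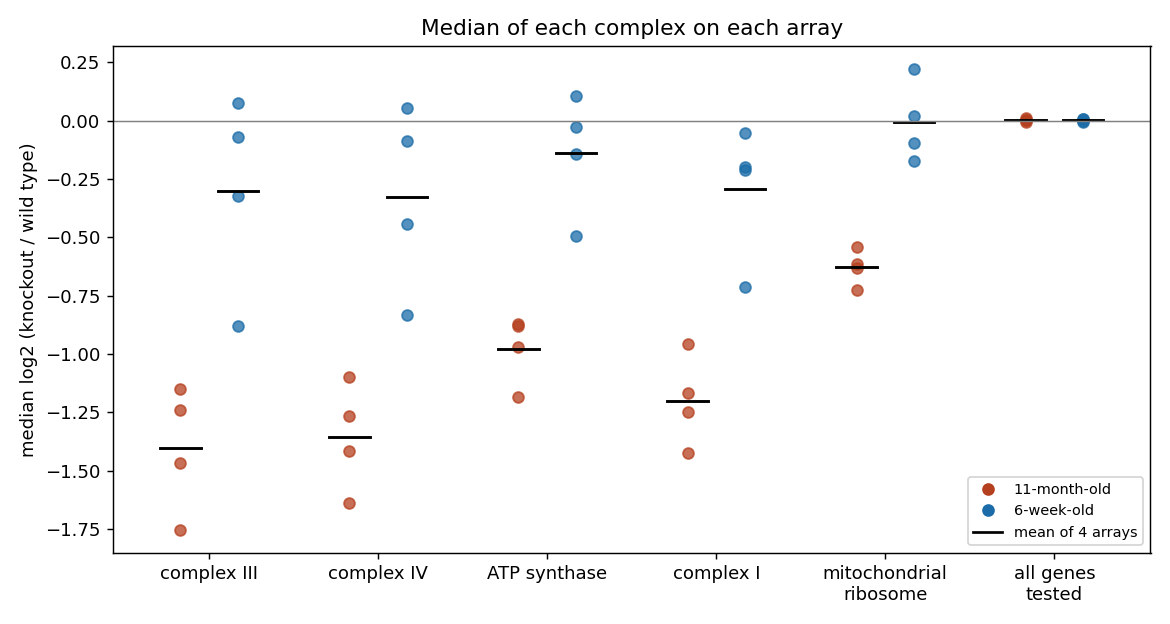
Median log2 ratio of KO over WT of the measured genes of each complex on each array, with complex I, mitochondrial ribosomal proteins and all genes tested for comparison. Points are arrays, 11-month-old left and 6-week-old right, and bars are means of 4 arrays. At 11 months the medians of complexes III and IV lie between -1.75 and -1.10 and those of ATP synthase between -1.18 and -0.87.

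Within ATP synthase the changes followed no single level. The catalytic head has the subunits alpha (Atp5a1) and beta (Atp5b), which were at -1.01 ± 0.087 and -0.96 ± 0.14 at 11 months (adjusted p = 0.000145 and 0.00175), and the call of Atp5b ended with no dye coefficient (adjusted p = 0.0723). The central stalk subunits delta (Atp5d) and epsilon (Atp5e) fell by 1.36 ± 0.11 and 1.33 ± 0.10. Atp5d had -1.35, -1.45, -1.55 and -1.09 on the 11-month-old arrays and -0.76, -0.17, -0.39 and -0.37 on the 6-week-old arrays, below 0 on all 8. The peripheral stalk genes Atp5f1 (subunit b), Atp5h (subunit d) and Atp5o (the oligomycin sensitivity protein) lay within -1.04 and -0.99, all called. The small membrane subunits e, f and g (Atp5k, Atp5j2 and Atp5l) lay within -1.38 and -0.98, all called. Atp5j2 had -1.0, -1.10, -1.92 and -1.48 on the 11-month-old arrays and -1.04, -0.62, 0.0018 and 0.13 on the 6-week-old arrays.

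Members of ATP synthase whose values lay on the other side from the complex were Atp5g3, Atp5c1 and Atp5j. Atp5g3 encodes the same mature subunit c as Atp5g1 and Atp5g2, the protein that forms the membrane ring of the rotor. It had log2 ratios of 1.51, 1.46, 1.05 and 0.87 on the 11-month-old arrays and 0.42, 0.20, 0.62 and 0.64 on the 6-week-old arrays, above 0 on all 8 and with no overlap between the ages. At both ages the values were higher on the arrays with KO tissue in Cy5, and the dye coefficient was called (0.21, adjusted p = 0.0411). Atp5g3 rose by 2.34-fold at 11 months (1.22 ± 0.063, adjusted p = 2.28e-05) and by 1.39-fold at 6 weeks (0.47 ± 0.063, adjusted p = 0.00436). Its probe lies on chromosome 2, 73746519 to 73746578 (mm9), and its mean normalised log2 intensity at 11 months was 16.7 in KO and 15.5 in WT channels. It was the only member called higher at 11 months in this model, and the 6-week call ended with median centring (0.73, adjusted p = 0.11) and without the 3 arrays with the largest muscle medians (0.52, adjusted p = 0.0535).

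Atp5g2 went the other way. It had -0.28, -0.38, -0.50 and -0.27 on the 11-month-old arrays and -0.52, -0.27, 0.17 and 0.21 on the 6-week-old arrays. Both of its kept probes also list other transcript entries, so their signal may not come from this gene alone. The fall at 11 months was the smallest among called members (-0.36 ± 0.093, adjusted p = 0.0209). Leaving out 11-month-old array 1, 2 or 3 ended this call (adjusted p = 0.0921, 0.106 and 0.0585). So did a model with no dye coefficient (adjusted p = 0.0545) and median centring (-0.26, adjusted p = 0.263). For Atp5g1 no probe of its own could be used. A probe named Gm10039 on the array lists the accessions of Atp5g1 transcripts beside its own, so its signal may come from either and it is counted with neither. This probe had 1.21, 0.78, 1.58 and 1.82 on the 11-month-old arrays and 1.03, 0.035, 0.94 and 0.58 on the 6-week-old arrays. Its fitted value was 1.35 ± 0.19 at 11 months (adjusted p = 0.00152) and 0.65 ± 0.19 at 6 weeks (adjusted p = 0.0601). The c subunit genes are compared here as a description, with no test between them.

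The RefSeq start regions of the 2 measured c subunit genes are shown with the same motif letters in capitals, since these genes moved in opposite directions at 11 months.
Atp5g3 (chr2:73911277-73911576, minus strand): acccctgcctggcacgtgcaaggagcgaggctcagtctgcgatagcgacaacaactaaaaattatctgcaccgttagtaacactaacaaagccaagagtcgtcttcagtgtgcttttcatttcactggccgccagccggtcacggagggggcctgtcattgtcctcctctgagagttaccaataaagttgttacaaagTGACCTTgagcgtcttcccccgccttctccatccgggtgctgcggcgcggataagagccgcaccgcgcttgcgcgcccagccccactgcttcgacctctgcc
Atp5g2 (chr15:102670998-102671297, minus strand): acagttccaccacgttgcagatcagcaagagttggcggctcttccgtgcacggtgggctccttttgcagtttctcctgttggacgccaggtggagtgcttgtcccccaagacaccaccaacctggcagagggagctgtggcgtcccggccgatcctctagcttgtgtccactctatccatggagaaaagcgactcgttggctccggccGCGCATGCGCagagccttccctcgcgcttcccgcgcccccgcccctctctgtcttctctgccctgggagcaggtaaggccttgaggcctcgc
The Atp5g3 region held the oestrogen-related receptor letters once, and the Atp5g2 region held overlapping NRF1 letters of both strands.

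Atp5c1 encodes the gamma subunit, the shaft of the rotor. It had 0.25, 0.25, 0.35 and -0.14 on the 11-month-old arrays and 0.58, 0.50, 0.39 and 0.48 on the 6-week-old arrays. It rose at 6 weeks (0.49 ± 0.083, adjusted p = 0.0103) and was not called at 11 months (0.18 ± 0.083, adjusted p = 0.139). Without 11-month-old array 4 it passed at 11 months (0.30, adjusted p = 0.00829). The call at 6 weeks ended without 6-week-old array 1 (adjusted p = 0.0535), with median centring (0.75, adjusted p = 0.0795) and without the 3 arrays with the largest muscle medians (adjusted p = 0.0504). Its 2 probes disagreed. The dimmer one gave means of -0.44 at 11 months and 0.051 at 6 weeks, so the direction of this gene depends on the probe. Atp5j encodes coupling factor 6 of the peripheral stalk and had 0.25, 0.22, 0.057 and 0.14 on the 11-month-old arrays and -0.19, -0.086, -0.014 and 0.18 on the 6-week-old arrays. It stood at 0.17 ± 0.055 at 11 months (adjusted p = 0.0505), and its probe also lists transcripts of other loci. The probes that stand for Uqcrh, Uqcr11, Cycs, Cox5b, Cox7c, Atp5g2, Atp5h, Atp5l and Atp5o also list transcript entries besides the gene's own.

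**Figure D5:**
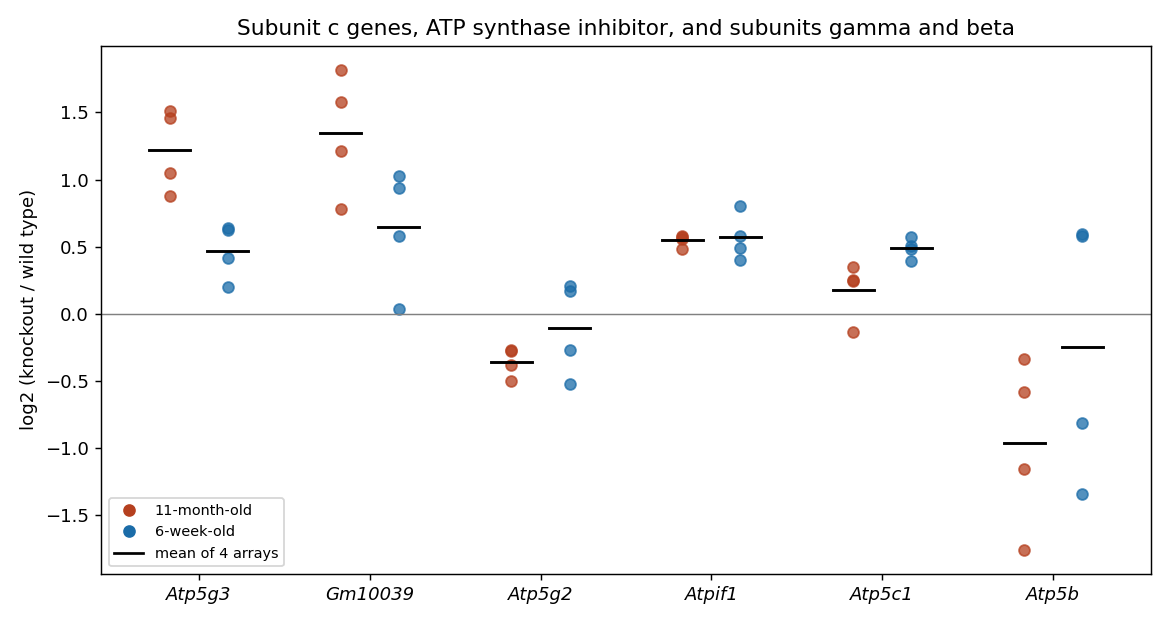
Log2 ratio of KO over WT on each array for the c subunit genes Atp5g3 and Atp5g2, the Gm10039 probe that also lists Atp5g1 transcripts, the inhibitor gene Atpif1, and the gamma and beta subunit genes Atp5c1 and Atp5b. Points are arrays, 11-month-old left and 6-week-old right, and bars are means of 4 arrays. Atp5g3, the Gm10039 probe and Atpif1 lie above 0 on all 8 arrays, and Atp5b lies below 0 on all 11-month-old arrays.

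At 6 weeks few members passed. Of the 37, 4 were lower (Cyc1, Atp5d, Atp5e and Atp5j2), 2 were higher (Atp5g3 and Atp5c1) and 31 were not called, against 7.01% of all genes called lower and 9.18% called higher. The share of members lower was 4 of 37 (10.8%), near the background. The fitted changes of the 4 were -0.56, -0.42, -0.41 and -0.38 (adjusted p = 0.0314, 0.0365, 0.0276 and 0.0372). The median of the members was -0.20, and 11 members were below 0 on 4 of 4 arrays, against 16.5% of all genes. The arrays differed, with 35, 32, 22 and 15 of 37 members below 0 on arrays 1 to 4. KO tissue was in Cy3 on the first 2 of these arrays and in Cy5 on the last 2. These counts are not corrected for dye, and 8 of the 37 members had a called dye coefficient.

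The 6-week-old counts changed with the setting and with single arrays. With median centring of each array in place of loess the members' median was 0.067 and none was called. No member was called lower from the authors' deposited value table or without background correction either. There Cyc1, Atp5d, Atp5e and Atp5j2 had nearly the same log2 ratios, with adjusted p-values between the threshold and 0.0725. Cyc1 was at -0.55 (adjusted p = 0.0513) in a fit of the authors' deposited table and at -0.56 (adjusted p = 0.0516) without background correction, and Atp5j2 was at -0.37 (adjusted p = 0.0725) and -0.38 (adjusted p = 0.0708). The call of Atp5j2 also ended with no dye coefficient (adjusted p = 0.282), and its dye coefficient was 0.39. With the scanner's own ratios Cyc1 was at -0.49 (adjusted p = 0.0888), and none was called lower. None was called lower without 6-week-old array 1, 3 or 4 either, and 1 was without array 2. Without 11-month-old arrays 1 to 4 the count was 1, 2, 6 and 11. At 11 months median centring left 32 members lower and 1 higher, with a median of -1.20. Over all genes it moved the split of calls to 3480 higher and 1432 lower at 11 months, in place of 3897 higher and 3647 lower, and to 664 higher and 284 lower at 6 weeks, in place of 1995 higher and 1525 lower.

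For most members the log2 ratio was lower at 11 months than at 6 weeks. The difference between the ages (11-month-old minus 6-week-old) was called lower for 32 of 37 members and higher for Atp5g3, against 9.71% of all genes lower and 8.46% higher. It was not called for Cox6a2, Atp5c1, Atp5g2 and Atp5j. Without overlap between the sets of 4 arrays, the 11-month-old values lay below the 6-week-old ones for 26 members and above them for 1, against 10.5% and 8.99% of all genes. The median difference was -0.94 over the members, -1.17 in complex III, -1.15 in complex IV and -0.80 in ATP synthase. With median centring 7 members kept a called difference, all lower (Uqcrb, Uqcrfs1, Uqcrh, Uqcr10, Cycs, Cox5a and Cox7b), while the members' median difference was -1.09. Over all genes the lower calls of the difference went down to 223 with that setting, in place of 2112. Age, slide and software version cannot be told apart in this difference. Across the 37 members the mean log2 ratios of the 2 ages had a Pearson r of 0.573 and a Spearman rho of 0.526, and without Cox6a2 they had 0.865 and 0.63 (genes of each age share their arrays, a description).

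Other genes of the same complexes mostly fell beside the members at 11 months. The lists were chosen with earlier results of these data known. Of 9 measured further subunits and isoforms 8 were lower and 1 was higher, with Ndufa4, a protein of complex IV, at -1.43 ± 0.079 (adjusted p = 3e-05). The higher one was Atpif1, which encodes the inhibitor of ATP synthase hydrolysis. It had 0.56, 0.48, 0.57 and 0.58 on the 11-month-old arrays and 0.40, 0.58, 0.81 and 0.49 on the 6-week-old arrays, above 0 on all 8. Atpif1 rose by 0.55 ± 0.07 at 11 months (adjusted p = 0.000855) and by 0.57 ± 0.07 at 6 weeks (adjusted p = 0.00327), and the difference between the ages, -0.023 ± 0.099, was not called (adjusted p = 0.893).

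Of the subunits encoded by mitochondrial DNA 5 of 5 measured were lower at 11 months, and none was called at 6 weeks. One of the 5 probes, named ATP8, carries a description of another ATP synthase subunit, so its target is uncertain. Of the other 4, CYTB of complex III stood at -1.65 ± 0.26 and COX1 of complex IV at -1.64 ± 0.42 (adjusted p = 0.00244 and 0.0188). COX2 stood at -1.54 ± 0.15 and COX3 at -1.53 ± 0.18 (adjusted p = 0.000237 and 0.000622). Most assembly factors of the 3 complexes were also called lower at 11 months. Of 26 for complex IV 23 were lower and Coa8 was higher (0.53), with a median of -0.57. Cmc2 stood at -1.41, Cox11 at -1.31 and the mitochondrial RNA-binding factor Lrpprc at -1.23. Of 6 for complex III 4 were lower, with a median of -0.45 and Uqcc1 at -1.29. Of 5 for ATP synthase 4 were lower, with a median of -1.10, Fmc1 at -1.47 and Tmem70 at -1.10.

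Among the neighbouring complexes 36 of 36 complex I subunits and 4 of 4 complex II subunits were lower at 11 months, with medians of -1.23 and -1.30. Of 77 mitochondrial ribosomal proteins 70 were lower, with a median of -0.64, smaller in size than that of each of the 3 complexes. A list of 16 regulators of respiratory genes held 9 lower and 2 higher genes (Nrip1 and Nrf1) at 11 months. The corepressor Nrip1 was at 2.15 ± 0.23, the nuclear receptor Ppara at -2.09 ± 0.44 and the coactivator Ppargc1b at -1.76 ± 0.14 (adjusted p = 0.000353, 0.00863 and 0.000121). At 6 weeks 2 of the 16 were lower (Ppargc1b and Tfam) and 3 were higher (Esrrb, Nrip1 and Esrrg). Esrrb, an oestrogen-related receptor gene, was at 0.15 ± 0.14 at 11 months (adjusted p = 0.426) and 1.95 ± 0.14 at 6 weeks (adjusted p = 0.000744). Esrrg, of the same family, was at -0.72 ± 0.12 at 11 months and 0.44 ± 0.12 at 6 weeks (adjusted p = 0.00257 and 0.0393). At 6 weeks Nrip1 stood at 1.21 ± 0.23 and Ppargc1b at -0.83 ± 0.14 (adjusted p = 0.0139 and 0.0109).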

How the data were processed

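For every spot the deposited scanner files give the mean intensity and the median background intensity nearby in both channels, from Agilent Feature Extraction 10.10.1.1 for the 11-month-old and 10.5.1.1 for the 6-week-old arrays, per the file headers (design annotated to mm9). The same deposited tables hold the software's log10 ratio of Cy5 over Cy3. A deposited value table holds log2 ratios. Its entries matched the running number of the spot, and it correlated with the values used here at r = 0.88 to 0.978 per array as KO over WT. Column medians ran from -0.051 to 0.085. The submitters' processing notes name limma, and the sources used here give neither its normalization nor its centring.

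Background was corrected by normexp (offset 50) and each array was normalised by loess, with control and excluded spots (131 to 247 per array) at weight 0, in limma 3.58.1 (R 4.3.3). Log ratios were turned to KO over WT by the labelled dyes and averaged per probe. Kept probes (26853 of 39429) had at least 3 arrays of each age and 4 or more of 16 channel measurements well above background. Of the spots 61.2% to 68.2% per channel were well above background. The brightest probe stood for a gene. Of 21742 genes 14775 took a RefSeq symbol through their accession. The model had a coefficient per age and 1 shared dye coefficient (5 residual degrees of freedom). On simulated data for 21742 genes with 200 changed at 11 months, 83.5% were recovered, and 9 unchanged genes were called. The simulated noise was independent for each gene and array. These figures therefore do not cover deviations that many genes of an array share. Isoform pairs were tested by exact sign-flip and permutation tests, with p-values adjusted over 3 pairs. The alternatives were median centring, the scanner's ratio, the deposited log2 table, no background correction, 2 other filters, the mean of all probes, 3 other forms of the model, a replicate block, and each array left out. The members and the gene lists were chosen with earlier results of these data known. By the naming rule all members could be named, with array values for the isoform pairs, the c subunit genes, the extremes of each complex, members that rose and members opposite to their complex.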

Additional observations from a re-analysis of the deposited data

Results flagged for a closer look

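Of 86 sets of 4 arrays (members, pairs and complex medians at each age) 5 held an array that stood apart from the other 3 by Dixon's criterion, where chance gives about 1 set in 20. The 6-week-old array 1 was that array for 4 members. There Uqcrc2 stood at -0.88 (others -0.13 to -0.071), Uqcrfs1 at -0.66 (others -0.04 to 0.035), Cox7a1 at -1.49 (others -0.58 to -0.42) and Atp5a1 at -0.58 (others -0.12 to -0.027). On 11-month-old array 3 Cox8b stood at -4.50 (others -2.38 to -2.12).

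For 33 members the change differed between the ages by the model's test of the difference itself (11-month-old minus 6-week-old, log2, limma, adjusted p below 0.05). In complex III the difference was -1.29 for Uqcr10, -1.28 for Uqcrb, -1.25 for Uqcrh, -1.23 for Uqcrfs1, -1.17 for Uqcrc1, -1.07 for Uqcrc2, -1.03 for Cyc1, -0.91 for Uqcrq and -0.89 for Uqcr11. In cytochrome c the difference was -1.42 for Cycs. In complex IV the difference was -2.53 for Cox7a1, -1.85 for Cox8b, -1.43 for Cox5a, -1.34 for Cox7b, -1.32 for Cox6a1, -1.29 for Cox6c, -1.15 for Cox7c, -1.14 for Cox6b1, -0.91 for Cox5b, -0.86 for Cox7a2, -0.78 for Cox4i1 and -0.74 for Cox8a. In ATP synthase the difference was -0.99 for Atp5j2, -0.96 for Atp5l, -0.94 for Atp5d, -0.92 for Atp5e, -0.92 for Atp5o, -0.91 for Atp5f1, -0.82 for Atp5a1, -0.77 for Atp5k, -0.71 for Atp5b, -0.71 for Atp5h and 0.75 for Atp5g3. Ages and slides cannot be told apart in these values.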

How the results depend on the processing

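At 11 months the count of lower members was 32 or 33 without any 1 array and 30 to 33 under the other settings, and Atp5g3 stayed higher under all of them. The count of higher members was 2 with no filter on dim probes, with the mean of all probes and without the 3 arrays with the largest muscle medians (an alternative added after the data were seen), and 1 or 2 without 1 array. At 6 weeks the count of lower members was 0 with median centring, the scanner log ratio, the authors' value table and no background correction, and 0 to 11 without 1 array. With the authors' table and with no background correction the log2 ratios of the 4 members called in the model used here stayed close to its values (Cyc1 -0.55 and -0.56, against -0.56). The count higher was 0 with median centring and without the 3 muscle arrays, and 1 to 2 without 1 array. The difference between ages was called lower for 7 members and higher for 0 with median centring, where the members' median difference was -1.09, against -0.94 with loess, and lower calls over all genes numbered 223, against 2112. Same-numbered arrays of the 2 ages correlated at -0.2 to -0.053 in their deviations. These arrays had KO tissue in opposite dyes, and the deviations were not corrected for dye. The correlations therefore cannot show whether the arrays share more than a number. The replicate block gave 33 lower and 1 higher at 11 months, 4 and 2 at 6 weeks, and 32 and 1 for the difference.

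Cox7a1 and Cox8b against their partners over both ages stood at -1.95 and -1.83 without the 3 muscle arrays (5 arrays, adjusted p = 0.0938). Without 1 array the pair values over both ages ran from -1.63 to -1.16 and from -1.55 to -1.19, and those between ages from -2.06 to -1.22 and from -1.44 to -0.76. Cox6a2 minus Cox6a1 turned sign over both ages and at 6 weeks without 1 array (ranges -0.30 to 1.01 and -1.91 to 0.23), and without the 3 muscle arrays at 6 weeks (1.5) and between ages (-0.87). The 6-week-old median of ATP synthase was 0.082 with median centring.

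Single members also turned sign. At 11 months these were Atp5c1 with the mean of all probes (-0.13) and Cox6a2 without array 4 (range without 1 array -0.76 to 0.61) or the 3 muscle arrays (-0.82). At 6 weeks Cox6a2 turned without the 3 arrays (1.18; difference between ages -2.0), Cycs with the mean of all probes (0.14), and Cox8a with the scanner log ratio (0.016) and without 6-week-old array 1 (range -0.18 to 0.00103). Atp5g2 (range -0.16 to 0.0017) turned without 6-week-old array 1, and Atp5j (range -0.076 to 0.0030) without array 1 or 3. With median centring Uqcrb (0.12), Uqcrfs1 (0.10), Uqcrh (0.016), Uqcrq (0.12), Uqcr10 (0.067), Cycs (0.067), Cox5a (0.093), Cox5b (0.014), Cox6a1 (0.14), Cox6c (0.085), Cox7a2 (0.14), Cox7c (0.080), Cox8a (0.17), Atp5a1 (0.077), Atp5b (0.021), Atp5f1 (0.18), Atp5g2 (0.16), Atp5j (0.22), Atp5k (0.061), Atp5l (0.087) and Atp5o (0.13) lay above 0 at 6 weeks. The cause was not tested. All members were well above background in every channel measurement. They were among the brighter genes tested, with a median intensity percentile of 99.2 and a lowest of 75.5 (Cox6a2). The shares of all genes given beside the members are not matched for brightness.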
